A study of Homo sapiens with 6 samples.

Results

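The genes described here are the ligands, receptors, antagonists, SMADs and direct targets of the TGF-beta, BMP and activin pathway. The list holds 54 genes of the 58735 in the count table, and each was taken by its gene symbol. They were measured in UE7T-9, a mesenchymal stem cell line from human bone marrow grown in DMEM. Control cells (genotype WT) were compared with SRRM4 KO cells, in which the splicing regulator SRRM4 was targeted with lentiviral CRISPR v2. Each group has 3 libraries of non-stranded mRNA-seq, called control replicates 1 to 3 and KO replicates 1 to 3. The KO cells were grown from single cells by limiting dilution, and the study describes the loss of SRRM4 protein as incomplete. Knockout and clone cannot be told apart. The labels name no vector for the control cells, while the study raises lentivirus infection as a possible influence on them, so whether the groups differ in viral transduction is not clear. The study states in general that its experiments were repeated, but the sources do not say whether the RNA libraries of a group came from separate cultures, so the p-values measure only the spread between these libraries, which may be technical.

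Ligands of this family bind a pair of type II and type I receptor kinases at the cell surface. TGF-beta and activin receptors phosphorylate SMAD2 and SMAD3, BMP receptors phosphorylate SMAD1, SMAD5 and SMAD9, and both kinds of SMAD enter the nucleus with SMAD4. The ligands are held back outside the cell by latent TGF-beta binding proteins and by antagonists such as noggin, gremlin and follistatin, and inside the cell by the inhibitory SMAD6 and SMAD7. In mesenchymal stem cells, BMP signals are known for bone formation and TGF-beta for matrix production, and the ID genes are classical direct targets of BMP.

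The results turn on the 4 ID genes and the inhibitory SMADs, so the promoters of the ID genes and SMAD6 are shown first. The SMAD7 promoter is not shown. ID1 to ID4 encode helix-loop-helix proteins without a DNA-binding region, which bind and block basic helix-loop-helix transcription factors. Each sequence is a window of 300 bases from RefSeq (GRCh38.p14), with 250 bases before the start site and 50 from it, written 5′ to 3′ on the gene's strand. Capitals mark any of 6 motifs searched on both strands, which were GGCGCC, a GC-rich site of BMP-type SMADs, CAGACA, a form of the SMAD3 and SMAD4 site, GTCTAGAC, the palindromic SMAD site, CACGTG, the E-box, CCAAT and TATAAA. None of these motifs contains another. The windows lie at chr20:31605039-31605338 on the plus strand for ID1, chr2:8681806-8682105 on the plus strand for ID2, chr1:23559452-23559751 on the minus strand for ID3, chr6:19837120-19837419 on the plus strand for ID4 and chr15:66701986-66702285 on the plus strand for SMAD6.
ID1: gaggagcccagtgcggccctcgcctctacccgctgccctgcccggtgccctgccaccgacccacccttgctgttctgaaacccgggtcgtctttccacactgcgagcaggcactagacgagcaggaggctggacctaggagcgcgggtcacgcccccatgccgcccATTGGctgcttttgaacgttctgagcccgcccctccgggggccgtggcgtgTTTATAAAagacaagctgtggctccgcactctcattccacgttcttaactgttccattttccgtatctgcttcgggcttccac
ID2: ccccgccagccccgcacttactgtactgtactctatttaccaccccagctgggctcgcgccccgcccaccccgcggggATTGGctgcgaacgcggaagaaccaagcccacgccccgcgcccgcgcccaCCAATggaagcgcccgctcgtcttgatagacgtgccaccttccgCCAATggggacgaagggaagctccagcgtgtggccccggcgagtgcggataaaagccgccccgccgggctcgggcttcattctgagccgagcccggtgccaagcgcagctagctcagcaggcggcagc
ID3: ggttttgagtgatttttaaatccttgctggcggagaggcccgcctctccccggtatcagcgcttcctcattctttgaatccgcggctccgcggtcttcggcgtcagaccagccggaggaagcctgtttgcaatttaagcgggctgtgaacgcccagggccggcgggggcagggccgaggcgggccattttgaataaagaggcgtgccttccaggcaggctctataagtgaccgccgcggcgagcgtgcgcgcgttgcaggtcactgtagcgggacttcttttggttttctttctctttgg
ID4: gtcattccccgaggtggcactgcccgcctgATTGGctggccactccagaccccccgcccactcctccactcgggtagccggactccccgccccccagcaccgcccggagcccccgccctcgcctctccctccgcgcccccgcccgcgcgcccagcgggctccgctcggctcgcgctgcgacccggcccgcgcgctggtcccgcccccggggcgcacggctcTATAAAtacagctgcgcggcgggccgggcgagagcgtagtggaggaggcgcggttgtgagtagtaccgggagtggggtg
SMAD6: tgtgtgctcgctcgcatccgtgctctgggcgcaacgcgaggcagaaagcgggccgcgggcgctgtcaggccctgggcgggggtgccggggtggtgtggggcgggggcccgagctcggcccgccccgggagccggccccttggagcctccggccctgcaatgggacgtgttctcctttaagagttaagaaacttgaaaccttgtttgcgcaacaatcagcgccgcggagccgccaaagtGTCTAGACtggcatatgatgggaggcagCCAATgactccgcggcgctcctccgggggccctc

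The ID1 and ID4 windows both held TATAAA, with overlapping matches on opposite strands in ID1 at -33 and -31 and a match in ID4 at -29, counted from the start site to the first base of the match. CCAAT was found in ID1 at -84, in ID2 at -172, -122 and -78, in ID4 at -220 and in SMAD6 at 17. None of the 6 motifs was found in the ID3 window. The palindrome GTCTAGAC stood in the SMAD6 window at -12 and in no other window of a member, and it is found in 67 of all 34796 RefSeq promoter windows (0.193%). The letters GGCGCC and CAGACA, as searched, were in none of these 5 windows. Shorter forms of these sites were not searched, nor was sequence outside the windows. Whether these genes have such sites further from the start site was therefore not tested. GGCGCC and CAGACA are held by 19.2% and 16.9% of all windows. Over the 47 members with an entry (79 windows), GGCGCC was found in 26.6% and CAGACA in 21.5% of the windows. TATAAA is held by 11.6%, CCAAT by 34.6% and CACGTG by 7.2% of all windows. BMP1, BMP2, BMP7, GDF6, NOG, ACVRL1 and SKI had no entry.

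The libraries held 21496117 to 23868323 counts, so that 3 counts, the limit that a count of 0 allows, are 0.123 to 0.139 CPM (read counts scaled to library size with TMM) and cover counting error only. SRRM4 itself (chromosome 12, 118981495 to 119163051, plus strand) had 0 counts in all 6 libraries, so its RNA gives no check of the labels. Control replicate 1 stood apart from the other controls. It had counts on 22403 genes against 20127 to 20674 in the other 5 libraries, and its counts differed from those of the other controls by a chi-square of 22.99 and 23.46 per degree of freedom, against 5.635 between control replicates 2 and 3. Among the marker genes, NT5E, ENG and VIM had 4065 counts or more in every library, with log2 fold changes of 0.52 and 0.36 for NT5E and VIM, which rose, and -0.34 for ENG, which fell. THY1 fell from 2675, 3284 and 3468 counts to 642, 670 and 523, and PDGFRB and COL1A1 also fell past both thresholds given below. Of the blood, endothelial and epithelial markers, several were at or near 0 (PTPRC at most 2 counts, SPI1 at 0, PECAM1 at most 3, CDH5 at most 1, EPCAM at most 2 and KRT5 at most 1). VWF with 18 to 46 counts, CDH1 with 9 to 39, CD34 and CD14 were counted in every library and did not pass the test. ITGAM had 5, 14 and 13 counts and KRT19 10, 9 and 19 in the controls, and both had 0 in the KO cells. HLA-DRA had 7, 11 and 9 counts in the controls and 0, 4 and 1 in the KO cells. KDR and TEK, receptor genes on the endothelial list, were counted in every library and fell in the KO cells.

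Of the 54 members, 52 had at least 1 count and 51 had enough counts to be tested with the quasi-likelihood test of edgeR and Benjamini-Hochberg adjustment over all 15341 genes tested. BMP5 and BMP7 had 0 counts in every library. MSTN, the muscle growth inhibitor myostatin, had 7, 2 and 0 counts in the controls and 0, 0 and 1 in the KO cells and was not tested. Below, a gene rose or fell where its adjusted p was under 0.05, and it was called where its log2 fold change (KO over control) was also beyond 1 in size.

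More members fell than rose. By the adjusted p alone, 27 members fell, where the background over all genes tested was 20.9%, and 8 rose, where it was 20.7%, which left 16 that did not pass. By both thresholds 13 members were called lower, against a background of 7.14%, and 1 was called higher, against 5.45%. The KO libraries all lay below the control libraries for 31 of the 51 tested members and above them for 8, while over all genes tested 25.9% did not overlap on the lower side and 25.9% on the higher side. The median log2 fold change was -0.42 over the members and -0.01 over all genes tested. The members were chosen with earlier results of these data known, so these comparisons with the background are descriptions. Without control replicate 1, 27 members fell and 8 rose, and 12 were called lower and 1 higher. As the RNA is from bulk cultures, fewer cells of a kind and less RNA per cell cannot be told apart.

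**Figure D1:**
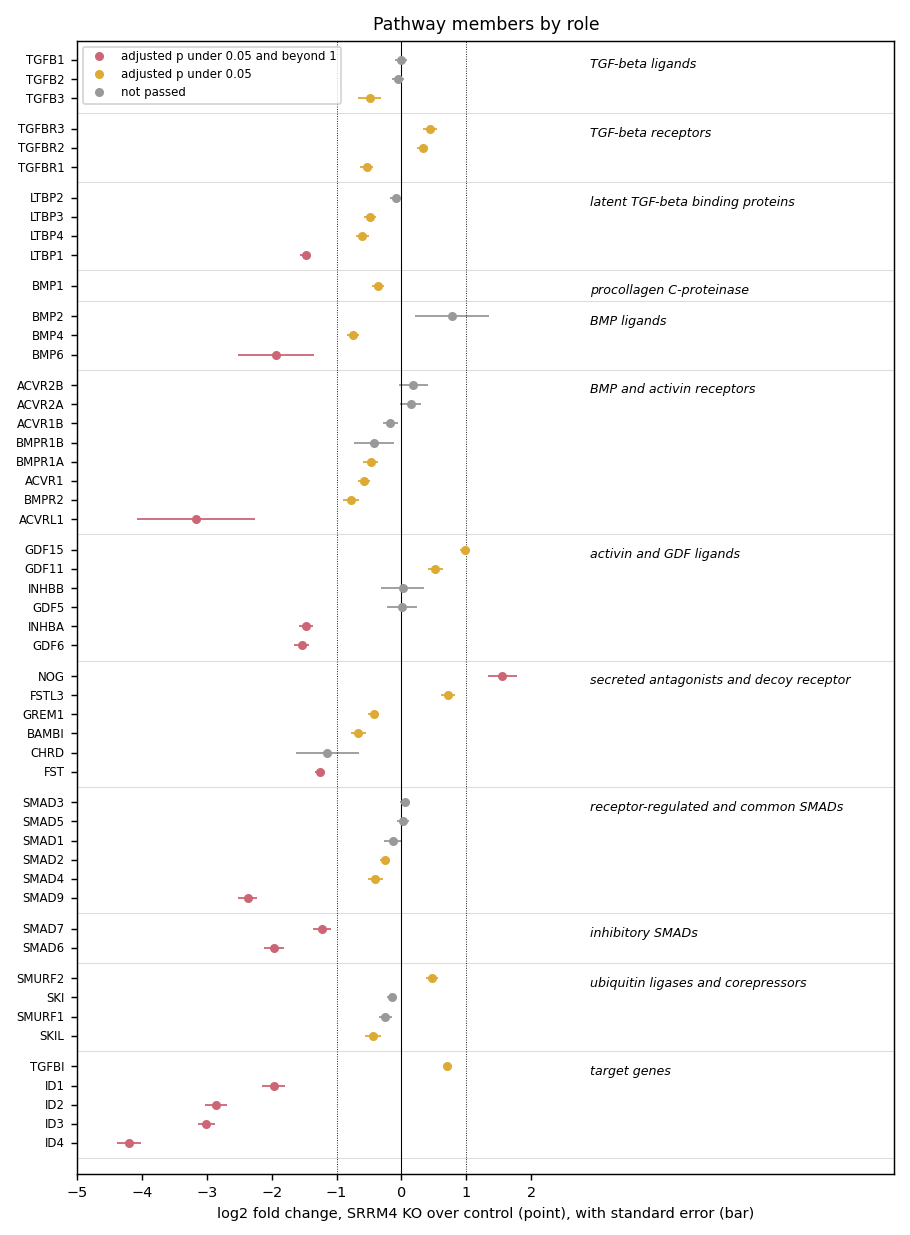
The log2 fold change of the 51 tested members (x axis, KO over control, bars are standard errors) is plotted by role and sorted within each role. The 4 ID genes, SMAD9, SMAD6 and SMAD7 lie left of the dotted line at -1, while TGFB1, TGFB2, SMAD3 and SMAD5 lie next to 0.

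All 4 ID genes were called lower, and ID4, ID3 and ID2 fell further than any other member apart from ACVRL1, which had few counts. ID4 (chromosome 6, 19837386 to 19840684) had 1120, 1096 and 1079 counts in control replicates 1 to 3 and 54, 47 and 86 in KO replicates 1 to 3. Its level went from 50.3 ± 1.72 to 2.75 ± 1.03 CPM (SD, n = 3), with a log2 fold change of -4.20 (SE 0.19, edgeR adjusted p = 2.32e-10), or 18.3-fold lower. ID3 (chromosome 1, 23557918 to 23559794), the most abundant of the family, had 2907, 3836 and 4438 counts in the controls and 497, 468 and 486 in the KO cells. The control libraries of ID3 spread widely, with replicate 1 lowest, but the KO libraries lay far below all of them, at 8.04-fold lower (log2 fold change -3.01, SE 0.14, edgeR adjusted p = 2.38e-10).

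ID2 (chromosome 2, 8678845 to 8684453) had 733, 897 and 846 counts in the controls against 89, 130 and 138, a log2 fold change of -2.86 (SE 0.16, edgeR adjusted p = 3.12e-09). ID2 shares 38 exon bases with the antisense gene ID2-AS1, which had at most 19 counts. ID1 (chromosome 20, 31605283 to 31606515) had 429, 582 and 544 counts in the controls against 106, 180 and 131, a log2 fold change of -1.97 (SE 0.18, edgeR adjusted p = 3.70e-07). For none of the 4 genes did the groups overlap. Per kilobase of exon, the 4 genes summed to 152.6 ± 21.5 CPM in control and 20.2 ± 1.28 CPM in the KO libraries (SD, n = 3), 7.55-fold lower.

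Shares of a gene within its family are given as descriptions, without a test, and were chosen after the values were seen. The share of ID1 in the summed level per kilobase was 12.5%, 13.6% and 11.8% in the controls and 20.2%, 30.1% and 22.3% in the KO cells. The share of ID4 was 17.2%, 13.4% and 12.3% in the controls and 5.41%, 4.13% and 7.71% in the KO cells. Neither share overlapped between the groups, whereas the share of ID3, the largest in all 6 libraries, did overlap, at 61.8 ± 3.77% and 58.5 ± 5.82% (SD, n = 3). The fifth target on the list, TGFBI, which encodes a matrix protein induced by TGF-beta, went the other way. It had 3474, 3347 and 3652 counts in the controls and 5680, 6520 and 5743 in the KO cells, and rose by 0.71 (log2 fold change, SE 0.08, edgeR adjusted p = 2.27e-06).

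**Figure D2:**
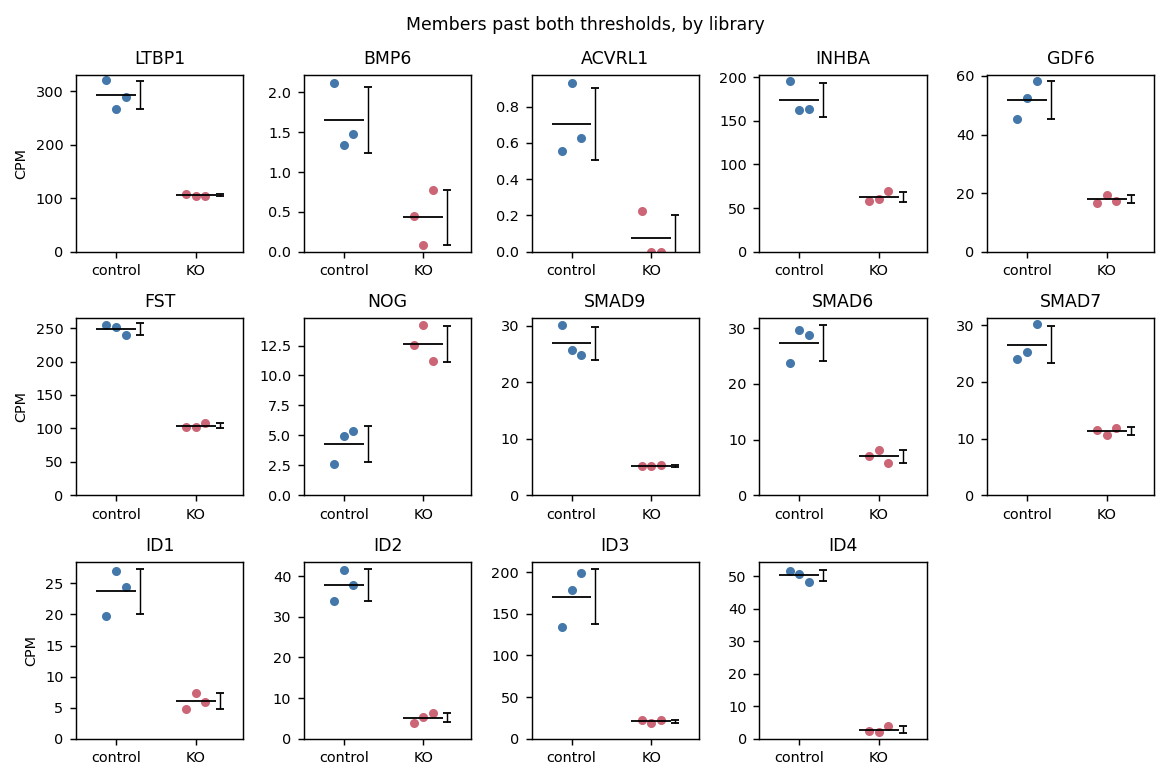
CPM (y axis, from 0, with a scale for each panel) of the 14 called members in each library is shown with points for libraries, a horizontal line for the group mean and a bar for its SD (n = 3). The control and KO points are apart in every panel, and only NOG is higher in the KO libraries.

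Among the SMADs, which carry the signal from the receptors into the nucleus, SMAD9 and both inhibitory SMADs were called lower and the other 5 were not called. SMAD9 (chromosome 13, 36844831 to 36920765), one of the 3 BMP-type SMADs, had 652, 554 and 552 counts in the controls and 114, 124 and 117 in the KO cells. The KO libraries of SMAD9 agreed closely, and the level went from 26.8 ± 2.84 to 5.18 ± 0.123 CPM (SD, n = 3), with a log2 fold change of -2.37 (SE 0.14, edgeR adjusted p = 5.13e-09). SMAD5, of the same class, had 2282, 1944 and 2069 counts in the controls and 2138, 2305 and 2240 in the KO cells. The log2 fold change of SMAD5 was 0.02 (approximate 95% interval -0.15 to 0.20). SMAD1 had a log2 fold change of -0.13 (-0.41 to 0.15). Within the summed level per kilobase of these 3 genes, SMAD9 held 27.1 ± 0.80% in control and 6.71 ± 0.07% in the KO libraries, and SMAD5 held 61.5 ± 0.55% and 79.9 ± 0.96% (SD, n = 3).

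Neither of the TGF-beta and activin type SMADs was called. SMAD3 had 2635, 2415 and 2610 counts in the controls and 2657, 2931 and 2731 in the KO cells, with overlapping groups and a log2 fold change of 0.05 (-0.11 to 0.21). SMAD2 fell by 0.26 (log2 fold change, SE 0.08, edgeR adjusted p = 0.0186), and its adjusted p ran up to 0.0779 when 1 library was left out. The median log2 fold change of the genes tested on its chromosome, 18, was -0.34, and set against it the change of SMAD2 was 0.09. SMAD4, the common partner of both branches, fell by 0.40 (log2 fold change, SE 0.11, edgeR adjusted p = 0.00940), with an adjusted p of 0.0508 without KO replicate 1 and a change of -0.27 without control replicate 1. SMAD4 also lies on chromosome 18, and its change was -0.06 set against the median there and -0.16 set against its neighbours.

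SMAD6 and SMAD7, the inhibitors that SMAD signals themselves induce, were both called lower. SMAD6 (chromosome 15, 66702228 to 66782848), whose promoter is shown above, had 514, 640 and 640 counts in the controls and 155, 199 and 128 in the KO cells. Its level fell from 27.4 ± 3.20 to 6.98 ± 1.18 CPM (SD, n = 3), with a log2 fold change of -1.97 (SE 0.16, edgeR adjusted p = 1.01e-07). SMAD7 (chromosome 18, 48919853 to 48952052) had 522, 546 and 675 counts in the controls and 256, 259 and 262 in the KO cells, a log2 fold change of -1.23 (SE 0.13, edgeR adjusted p = 2.98e-06). Set against the chromosome 18 median, the change of SMAD7 was -0.88, which is inside the fold threshold. SMAD6 made up 37.7 ± 2.67% of the pair's summed level per kilobase in control and 26.6 ± 4.41% in the KO libraries, without overlap.

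Of the genes that modify SMADs and their partners, SMURF2 and SKI had the highest levels per kilobase. SMURF2, a ubiquitin ligase that targets SMADs and receptors, had 1646, 1512 and 1447 counts in the controls and 2164, 2238 and 2298 in the KO cells and rose by 0.48 (log2 fold change, SE 0.09, edgeR adjusted p = 0.000716). The median of the 20 nearest tested genes on each side of SMURF2 was 0.59, so the gene did not stand above its neighbours. SKI, a corepressor of SMADs, had 2628, 2786 and 2780 counts in the controls and 2547, 2694 and 2494 in the KO cells and did not pass (log2 fold change -0.15, edgeR adjusted p = 0.152). Its relative SKIL fell by 0.44, or by 0.27 without control replicate 1, and SMURF1 had a value of -0.25 that did not pass. SMURF1 shares 735 exon bases (11.7%) with the opposite-strand gene TRRAP and SMURF2 shares 167 (2.4%) with CEP95, and both partners were well counted, so reads there could belong to either.

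Of the 3 TGF-beta ligands, TGFB1 and TGFB2 did not pass the test, while 3 of the 4 members of the latent TGF-beta binding protein family fell. TGFB1 had 3779, 4421 and 4942 counts in the controls and 4674, 4775 and 4178 in the KO cells, and TGFB2 had 5179, 4457 and 4271 against 4474, 4692 and 4784. The groups overlapped for both genes, with log2 fold changes of -0.01 (approximate 95% interval -0.20 to 0.17) and -0.06 (-0.24 to 0.12). The 3 ligands summed to 104.8 ± 2.71 CPM per kilobase in control and 102.1 ± 2.99 in the KO libraries (SD, n = 3). TGFB3, the least abundant at 1.61% and 1.18% of that sum, fell by 0.49 (log2 fold change, edgeR adjusted p = 0.0393), and it did not pass in 5 of 6 fits without 1 library. TGFB1 shares 215 exon bases (6.64%) with HNRNPUL1 on the opposite strand. TGFB2 shares 1371 (26.6%) with TGFB2-OT1 on its own strand, which had 0 counts in every library. How reads in shared bases were counted is not known, so the 0 does not show that TGFB2-OT1 was silent. If such reads were left out, the level of TGFB2 per kilobase and its part of the sum would be too low.

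LTBP1 (chromosome 2, 32946972 to 33399509), a latent TGF-beta binding protein that tethers the inactive ligand to the matrix, was called lower. It had 6945, 5761 and 6466 counts in the controls and 2396, 2532 and 2300 in the KO cells, 2.78-fold lower (log2 fold change -1.47, SE 0.09, edgeR adjusted p = 4.03e-09). LTBP4, of the same family, had 3183, 3338 and 3836 counts against 2428, 2695 and 2036 and fell by 0.60 (log2 fold change, edgeR adjusted p = 0.000120). LTBP3 fell by 0.49, and LTBP2, the family member not known to bind latent TGF-beta, did not pass (log2 fold change -0.09). The summed level of the 4 LTBP genes went from 79.4 ± 3.12 to 43.9 ± 2.88 CPM per kilobase (SD, n = 3), and LTBP1 went from 50.2% to 32.8% of it. BMP1, listed here by its name, is a metalloproteinase that trims procollagen and can release latent TGF-beta. It had 6668, 7540 and 8181 counts in the controls and 6281, 6928 and 5134 in the KO cells and fell by 0.36 (log2 fold change, SE 0.09, edgeR adjusted p = 0.00655).

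The TGF-beta receptors moved in both directions. TGFBR2, the type II receptor that binds the ligand, had 2926, 2616 and 2601 counts in the controls and 3512, 3711 and 3495 in the KO cells and rose by 0.33 (log2 fold change, SE 0.08, edgeR adjusted p = 0.00524). TGFBR1, the type I kinase, had 4819, 3704 and 4009 counts against 3011, 2882 and 3114 and fell by 0.54 (SE 0.10, edgeR adjusted p = 0.000719). Control replicate 1 was the highest library for TGFBR1, and without it the log2 fold change was -0.42. Set against the 20 nearest tested genes on each side, it was -0.25. The coreceptor TGFBR3 rose by 0.45. Against their neighbours, the changes of TGFBR2 and TGFBR3 were 0.22 and 0.23. In the summed level per kilobase of the 3 receptors, which was 58.5 ± 6.22 in control and 58.1 ± 2.80 in the KO libraries, TGFBR1 went from 47.7 ± 1.91% to 33.1 ± 1.48% and TGFBR2 from 45.3 ± 1.61% to 57.2 ± 1.55% (SD, n = 3).

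**Figure D3:**
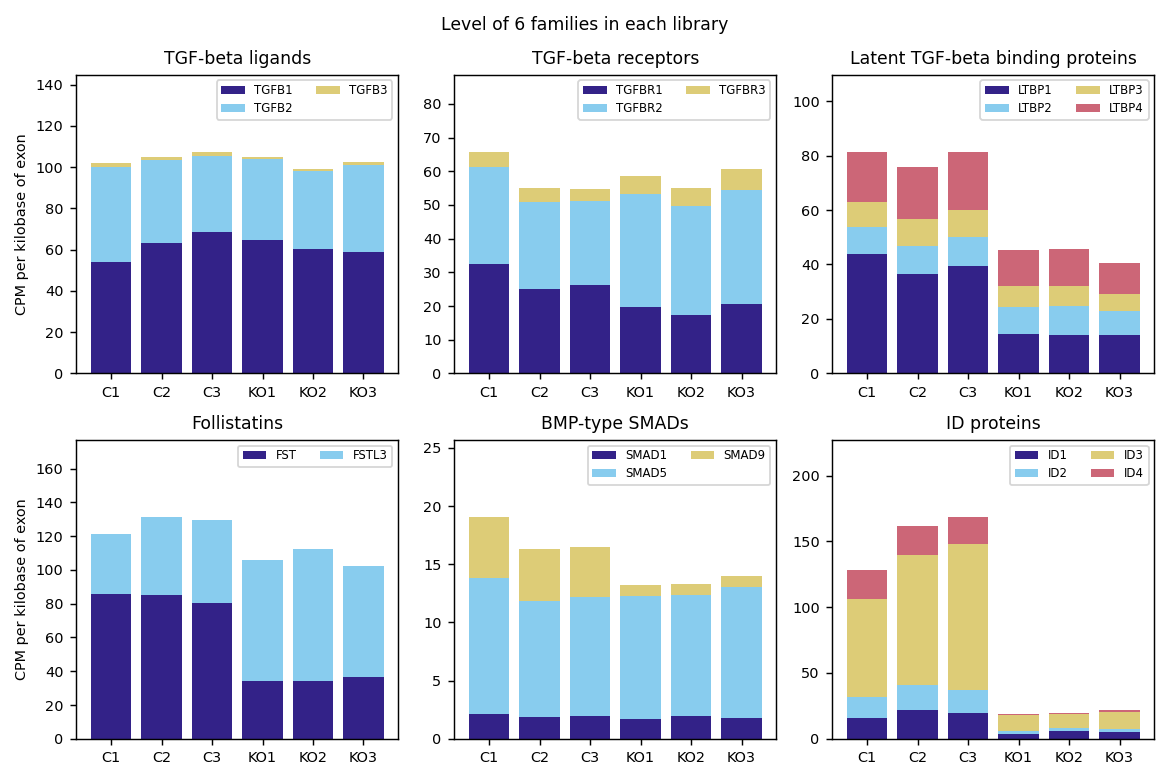
Stacked bars give the level in CPM per kilobase of exon (y axis, from 0) of each gene of 6 families in control (C1 to C3) and KO (KO1 to KO3) libraries. The TGF-beta ligand bars average 104.8 in control and 102.1 in the KO libraries, the ID bars average 152.6 and 20.2, and FSTL3 is the larger part of the follistatin bars in the KO libraries only.

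Of the BMP and activin receptors, 4 fell and 4 did not pass. ACVR1, a type I receptor for BMPs, had 2456, 2187 and 2210 counts in the controls and 1638, 1656 and 1514 in the KO cells and fell by 0.58 (log2 fold change, SE 0.09, edgeR adjusted p = 9.29e-05). Set against the 20 nearest tested genes on each side, the change of ACVR1 was -0.19. BMPR2, the main type II receptor for BMPs, had 4389, 3159 and 3273 counts against 2206, 2158 and 2238 and fell by 0.78 (SE 0.12, edgeR adjusted p = 8.09e-05). Control replicate 1 was far above the other controls for BMPR2, and the log2 fold change without it was -0.61, while the value set against its neighbours was -0.47. BMPR1A, a further type I receptor, fell by 0.47. The activin receptors ACVR1B, ACVR2A and ACVR2B had log2 fold changes of -0.17, 0.14 and 0.18, and BMPR1B had -0.42, and none of these passed. Without 1 library BMPR1B ran from -0.57 to -0.09, the latter without control replicate 1, and ACVR2A ran from 0.01 to 0.23. ACVR2A shares 430 exon bases (6.35%) with ORC4 on the opposite strand.

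ACVRL1 (chromosome 12, 51906908 to 51923361), a type I receptor best known from endothelial cells, was called lower at very low counts. It had 12, 20 and 14 counts in the controls and 5, 0 and 0 in the KO cells, with a fitted log2 fold change of -3.17 (SE 0.91, edgeR adjusted p = 0.0110). The call rests on few reads. The adjusted p was 0.0524 without KO replicate 2 and 0.0504 without KO replicate 3, and without KO replicate 1 the KO libraries were at 0, which put the gene at least 5.42-fold lower against 3 counts per library. The 5 endothelial markers together had 488, 538 and 583 counts in the controls and 119, 108 and 129 in the KO cells, most of them from KDR and TEK. PECAM1 and CDH5 had at most 3 counts in any library, and VWF had 21, 46 and 18 counts in the controls and 19, 28 and 23 in the KO cells. The part of these genes in the result for ACVRL1 was not tested.

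Of the 5 BMP ligands, 3 had enough counts to be tested, and 2 of these fell. BMP4, the most abundant of them, had 1453, 1533 and 1648 counts in the controls and 980, 1058 and 860 in the KO cells. It fell from 70.7 ± 3.44 to 42.2 ± 2.69 CPM (SD, n = 3), with a log2 fold change of -0.74 (SE 0.09, edgeR adjusted p = 1.43e-05). BMP6 (chromosome 6, 7726797 to 7881422) had 46, 29 and 33 counts in the controls and 10, 2 and 17 in the KO cells and was called lower (log2 fold change -1.93, SE 0.59, edgeR adjusted p = 0.0153). Without control replicate 1, the highest library for BMP6, the adjusted p was 0.0516. Over the fits without 1 library the log2 fold change of BMP6 ran from -2.64 to -1.43. BMP2, with 17, 7 and 7 counts in the controls and 25, 20 and 11 in the KO cells, did not pass, with overlapping groups.

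Activin and GDF ligands differed from one another in direction. INHBA (chromosome 7, 41667168 to 41705834), whose product forms activin A, had 4251, 3493 and 3641 counts in the controls and 1301, 1465 and 1523 in the KO cells, 2.78-fold lower (log2 fold change -1.47, SE 0.10, edgeR adjusted p = 2.43e-08). GDF6 (chromosome 8, 96142330 to 96160792), a BMP-type ligand of joint and skeletal development, had 980, 1128 and 1298 counts against 374, 472 and 381, with a log2 fold change of -1.54 (SE 0.12, edgeR adjusted p = 8.50e-08). In both genes the KO libraries lay far below every control library.

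GDF15, a stress-induced member of the family that signals through a receptor outside it, was the most abundant ligand. It had 10119, 12149 and 13032 counts in the controls and 23859, 25819 and 23102 in the KO cells and rose from 538.1 ± 62.6 to 1060 ± 10.6 CPM (SD, n = 3). Its log2 fold change of 0.98 (SE 0.08, edgeR adjusted p = 1.95e-07) lay just inside the fold threshold, and it was called without control replicate 2 or 3. GDF11 rose by 0.52, and INHBB and GDF5, both at low counts, had log2 fold changes of 0.02 and 0.01 with overlapping groups. GDF5 shares 932 exon bases (35.2%) with the opposite-strand gene GDF5OS, which had at most 3 counts. Per kilobase, GDF15 made up 86.6% of the summed activin and GDF ligands in control and 96.6% in the KO libraries, and INHBA 7.14% and 1.43%.

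The antagonists of BMP and activin also differed among themselves. NOG (chromosome 17, 56593699 to 56595590), which encodes the BMP-binding protein noggin, was the only member called higher. It had 56, 107 and 119 counts in the controls and 279, 346 and 247 in the KO cells, with control replicate 1 lowest, and rose from 4.29 ± 1.49 to 12.7 ± 1.495 CPM (SD, n = 3). This was 2.94-fold (log2 fold change 1.56, SE 0.23, edgeR adjusted p = 5.26e-05). The 20 nearest tested genes on each side of NOG had a median of 0.56, and set against it the change of NOG was 0.995, just inside the fold threshold. GREM1, which encodes the BMP antagonist gremlin, fell by 0.43, and CHRD, which encodes chordin, had 32, 20 and 37 counts against 19, 15 and 8 and did not pass (log2 fold change -1.14, edgeR adjusted p = 0.0732). BAMBI, a decoy receptor without a kinase, fell by 0.67.

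FST (chromosome 5, 53480409 to 53487134), which encodes follistatin, an activin-binding protein, was called lower, while its relative FSTL3 rose. FST had 5522, 5440 and 5333 counts in the controls and 2276, 2471 and 2393 in the KO cells, a log2 fold change of -1.26 (SE 0.08, edgeR adjusted p = 8.87e-09). FSTL3 had 2374, 3052 and 3359 counts against 4877, 5842 and 4450 and rose by 0.72 (SE 0.11, edgeR adjusted p = 9.08e-05). Of their summed level per kilobase, FST held 65.9 ± 4.34% in control and 32.9 ± 2.67% in the KO libraries (SD, n = 3); FST led the pair in every control library and FSTL3 in every KO library.

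Levels of ligand and antagonist were also set against each other per kilobase, as ratios chosen after the values were seen and given without a test. The ratio of BMP4 to NOG was 15.9, 8.80 and 8.50 in the controls and 2.16, 1.88 and 2.14 in the KO cells. The ratio of BMP4 to GREM1, the more abundant antagonist, was 0.980, 1.08 and 1.11 in the controls and 0.919, 0.931 and 0.713 in the KO cells. The ratio of INHBA to FSTL3 was 0.662, 0.423 and 0.400 in the controls and 0.0986, 0.0926 and 0.126 in the KO cells. In the ratios to NOG and FSTL3 control replicate 1 was the highest library, and the groups did not overlap in any of the 3 ratios. The ratio of INHBA to FST went from 0.275, 0.230 and 0.244 to 0.204, 0.212 and 0.228.

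Whole chromosome regions differed between the groups, so each member was also set against its neighbours. The median log2 fold change of the 20 nearest tested genes on each side ran from -0.39 to 0.59 over the members. Near a chromosome end there were fewer, with 35 neighbours in all for ID2 and 29 for FSTL3. All 14 called members lay more than 0.9 from their neighbours' median in their own direction, and 15 of the tested members lay within 0.2 of it. As a call needed a change beyond 1 and these medians were smaller, the first count was largely fixed by the calls. NOG, at 0.995, was inside the fold threshold. The ID genes had neighbour medians of 0.09 for ID1, -0.07 for ID2, -0.04 for ID3 and -0.07 for ID4. The cause of the regional differences was not tested.

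**Figure D4:**
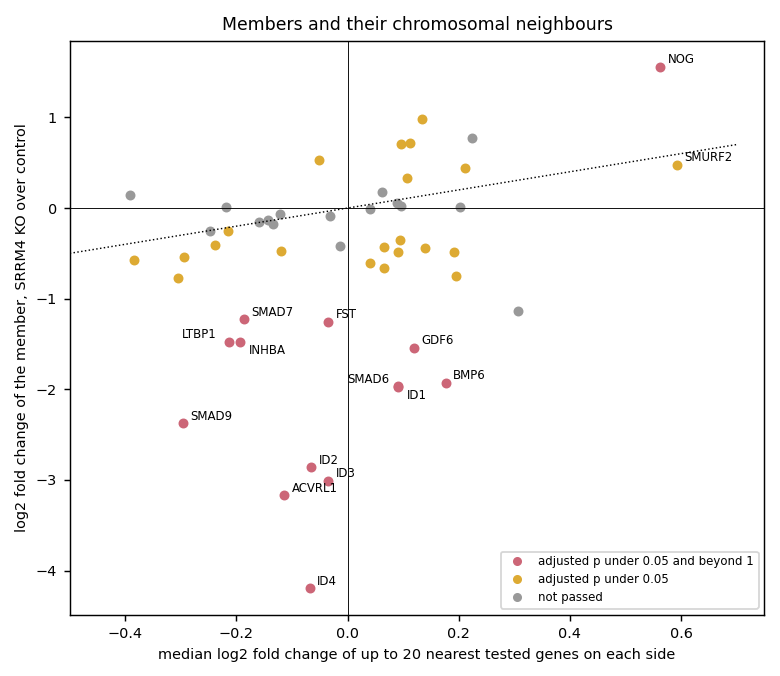
Each point is 1 of the 51 tested members, with the median log2 fold change of up to 20 nearest tested genes on each side on the x axis and its own log2 fold change on the y axis. The dotted line marks equal values. SMURF2 lies near it, while all 4 ID genes, SMAD9, SMAD6, BMP6 and ACVRL1 lie more than 2 below it.

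Of 107 further genes of the pathway that are not members, 77 were tested, of which 13 rose and 30 fell, and 4 were called higher and 16 lower (median log2 fold change -0.24). Over all genes tested, 20.7% rose and 20.9% fell, and 5.45% were called higher and 7.14% lower. These lists were chosen with earlier results of these data known, so the comparison is a description and no independent check. In the list of known BMP targets, 1 of 9 tested genes rose and 3 fell. ATOH8, a transcription factor gene, had 600, 617 and 790 counts in the controls and 47, 35 and 35 in the KO cells (log2 fold change -4.16, SE 0.18, edgeR adjusted p = 2.10e-10). DLX5, an osteoblast factor gene, and SAMD11 were called lower too, at -1.28 and -2.66. RUNX2, the master factor of osteoblasts, which was named after its value was seen, rose by 0.61.

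In the list of known TGF-beta targets, 4 of 17 tested genes rose and 10 fell. COL1A1 and COL1A2, the chains of type I collagen, were called lower at -1.23 and -1.70 and ACTA2, smooth muscle actin, at -3.26 (log2 fold changes). ACTA2 had 15604, 19154 and 19416 counts in the controls and 1996, 2179 and 1768 in the KO cells. The 2 genes called higher, TNC and SPHK1, both named after their values were seen, rose by 1.40 and 1.63.

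Of the further antagonists and carriers, 4 were called lower, and the 3 of these with the highest CPM were BGN, DCN and TWSG1, at -5.36, -3.36 and -1.12 (log2 fold changes). The other was ASPN at -1.48, named after its value was seen. Against the 20 nearest tested genes on each side, TWSG1 was at -0.73, inside the fold threshold. BGN and DCN encode the TGF-beta-binding matrix proteoglycans biglycan and decorin, and BGN had 12781, 13151 and 13898 counts in the controls and 412, 335 and 270 in the KO cells. Of this list, 2 of 11 tested genes rose and 6 fell, and CHRDL1, a chordin-like antagonist named after its value was seen, was called higher at 3.17. In the list of the latent complex and its activation, 3 of 10 tested genes rose and 6 fell, with LRRC32, which holds latent TGF-beta on the cell surface, called lower at -2.62. Among 6 further receptors and coreceptors, ACVR1C was called higher at 1.48 and NEO1 lower at -1.17, and RGMA was called lower with 11, 10 and 36 counts in the controls and 1, 0 and 0 in the KO cells. None of 4 further ligands passed, and of 20 intracellular regulators 16 did not pass, with TGIF2, a corepressor, called lower at -1.16.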

How the data were processed

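RNA of UE7T-9 cells was measured in 3 control and 3 SRRM4 KO libraries, grouped by their titles and genotypes. The authors deposited raw counts per gene, without normalization. The submitters' processing notes name HISAT2 2.0.5, featureCounts 1.5.0-p3 and DESeq2, and the study states non-stranded libraries. The counting parameters are not given in the sources used here, so how reads in exon bases shared by 2 genes were assigned is not known. All 58735 gene IDs were found in GENCODE release 29 (GRCh38), whose coordinates and exons are used.

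Counts were tested with edgeR 4.0.16 in R 4.3.3 (TMM, filterByExpr, prior count 0.125, quasi-likelihood test, two-sided, Benjamini-Hochberg adjustment over 15341 genes). Standard errors are the size of the log2 fold change over the root of F. Levels per kilobase use the exon length in the deposited table. Alternatives were a fit blocked by replicate number, fits without 1 library, the DESeq2 1.42.0 test and size factors, upper-quartile scaling, testing all genes or those with 10 or more counts throughout, and centring by chromosome or neighbours. The procedure was tested on simulated counts.

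The members and lists were chosen with earlier results of these data known. All members are named, with every library's value for those called and for the 2 of highest level per kilobase in each role. Counts of BMP2, CHRD and MSTN were added to show how low they are. Of the further lists, at most the 3 called genes of highest CPM are named by this rule. RUNX2, TNC, SPHK1, CHRDL1 and ASPN were added after their values were seen. Promoter sequences are from RefSeq (GRCh38.p14).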

Additional observations from a re-analysis of the deposited data

How the results depend on the processing

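The count of members called higher was 1 under every normalization, filter and test tried, and 1 to 2 when 1 library was left out, the second being GDF15 without control replicate 2 or 3. The count called lower was 11 with at least 10 counts in every library, which removed ACVRL1 and BMP6 from the genes tested, 12 with each chromosome centred, where SMAD7 was lost, 12 to 13 without 1 library and 13 otherwise. The numbers of members that fell ran from 24 to 28. The replicate numbers do not pair the libraries (correlations of the deviations of same-numbered libraries from their group means -0.0546, 0.0831 and -0.0529), and with a replicate block 8 members rose and 26 fell, SMAD2 being lost at an edgeR adjusted p of 0.0536. Of 710 comparisons of a member's log2 fold change with an alternative, 662 kept their direction and their side of the adjusted p threshold of 0.05, 14 no longer passed it, 4 newly passed it and 30 changed sign. None of the members whose sign changed was called, but SMAD2 and SMURF2 had passed the test. With upper-quartile normalization, INHBB was at -0.015, GDF5 at -0.024 and SMAD5 at -0.009. With at least 10 counts INHBB was at -0.002 and GDF5 at -0.011, and with the replicate block INHBB was at -0.034. With each chromosome centred, GDF5 was at -0.14, SMAD2 at 0.088, SMAD3 at -0.014 and SMURF1 at 0.005. Set against their neighbours, TGFB2 was at 0.06, GDF5 at -0.195, SMAD1 at 0.013, SMAD3 at -0.035, SMAD5 at -0.075, SMURF2 at -0.116 and SKI at 0.01, and NOG was at 0.995. Without 1 library, TGFB1 ran from -0.105 to 0.064, TGFB2 from -0.132 to 0.031, ACVR2B from -0.019 to 0.316, INHBB from -0.325 to 0.235, GDF5 from -0.09 to 0.129 and SMAD5 from -0.025 to 0.09. Centred values keep the adjusted p of the uncentred fit. The cause of these changes was not tested. BMP6, ACVRL1, BMP2 and CHRD had at most 46 counts in any library, and their standard errors were 0.49 to 0.91 on the log2 scale.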
